A study of Mus musculus with 9 samples.

Results

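Double-positive neurons of the mouse central amygdala are described here: inhibitory cells that held Prkcd transcripts together with those of at least 1 of the neuropeptides Sst, Crh, Tac2 and Nts. These 54 cells were chosen by their own measured transcript levels: a transcript counted as present from 1 in every 10000 gene counts of the cell upward, which is 100 CPM, with CPM the gene counts scaled to a common total per cell. Such a cell is called positive for the gene. Inhibitory cells had Gad1, Gad2 or Slc32a1 present and lacked both Slc17a6 and Slc17a7 at that level. The 54 stood among 829 deposited cells, of which 810 were inhibitory. They were set against 201 peptide cells without Prkcd and 289 Prkcd cells without peptide, and the other 266 inhibitory cells held none of the 5 transcripts at that level. Because these 10 transcripts chose the classes, their values are given as a description, with no test. All were taken from WT animals of the B6 strain, whose central amygdala was dissected out of acute slices, dissociated and pooled, in 9 samples of 1 group with no treatment named. The 9 samples cross 3 animal numbers with 3 date fields. The sources used here give neither sex, age nor how cells were picked. Nothing in the labels says that the samples are separate animals, so p-values measure the spread between these samples, which may be technical.

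The central amygdala is a mostly GABAergic nucleus that takes part in fear, pain and feeding. Prkcd encodes protein kinase C delta and marks a major class of its neurons, concentrated in the lateral division. The neuropeptides somatostatin (Sst), corticotropin-releasing hormone (Crh), tachykinin 2 (Tac2, the precursor of neurokinin B) and neurotensin (Nts) mark neurons that are usually described as largely separate from the Prkcd class and that overlap among themselves.

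The samples held 85 to 95 cells each, with median gene counts per cell of 96558 to 227570. Of the 376 cell barcodes in the table, 368 occurred in more than 1 sample, and all 54 double-positive cells had a barcode that other samples also used. Cells in other samples with the same barcode as a double-positive cell were peptide-positive in 26.4% of 72 cases. The corresponding share was 27.7% for barcodes of peptide cells without Prkcd and 30.4% for barcodes of Prkcd cells without peptide. In the 6 samples with at least 5 double-positive cells, all 10 excitatory and all 7 microglial marker genes were at 0 in their summed counts. Slc17a6 and Slc17a7 among them served in the rule. The other classes were low as well. Excitatory genes summed to medians of 0.908 CPM in peptide cells without Prkcd and 2.07 CPM in Prkcd cells without peptide, and microglial genes to 0 and 0.228 CPM. Those classes gave 31662682 and 37503827 counts, against 8075474 in the double-positive sums.

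The double-positive cells fell into few peptide combinations. All 4 peptides were positive in 15 of them, Crh alone in 13, and each of Sst, Tac2 and Nts alone in 6. Another 5 held Crh, Tac2 and Nts, 2 held Sst, Tac2 and Nts, and 1 held Crh and Tac2. Thus 31 cells held exactly 1 peptide, 22 held 3 or 4, and a single cell held 2. The same combinations had other frequencies in peptide cells without Prkcd, where Sst alone was the most frequent with 56 cells and Crh alone accounted for 10.

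Prkcd was unevenly spread over the number of peptides. It was positive in 289 of 555 inhibitory cells with no peptide (52.1%), in 31 of 148 with 1 peptide (20.9%, exact 95% interval 14.7% to 28.4%) and in 1 of 50 with 2 peptides (2.0%, 0.0506% to 10.6%). Among cells with 3 or 4 peptides it was positive in 22 of 57 (38.6%, 26.0% to 52.4%). These intervals, and all others given for shares, cover counting error only. By sample, the Prkcd-positive share ran over 41.5% to 63.6% with no peptide and 4.55% to 40.0% with 1 peptide. It ran over 0% to 16.7% with 2 peptides and 0% to 57.1% with 3 or 4, so the ranges for 1 and for 3 or 4 peptides overlapped. Crh was positive together with Prkcd in 34 cells, against 35.5 if both were spread independently within each sample. Sst was positive together with Prkcd in 23 cells, against 62.9 on that basis. Tac2 was so in 29 cells against 46.6, and Nts in 28 cells against 48.9.

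The Prkcd level also went with the number of peptides. In the 22 double-positive cells with 3 or 4 peptides it ranged over 108 to 531 CPM with a median of 249 CPM, and in the 31 with 1 peptide over 147 to 2494 CPM with a median of 1007 CPM. The value of 2494 CPM is 1 Prkcd count in a cell of sample 9 that had 401 counts in all, and the next highest was 2188 CPM. Prkcd cells without peptide had a median of 691 CPM. Cells with several peptides thus sat near the lower end of the Prkcd range, and cells with 1 peptide covered it. Over all 54 cells the Prkcd level and the highest peptide level had a Spearman rho of -0.547, which was -0.0718 within the 31 cells and 0.0367 within the 22 cells. These correlations are across cells of 9 samples, share the gene count of the cell as divisor and carry no test.

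**Figure D1:**
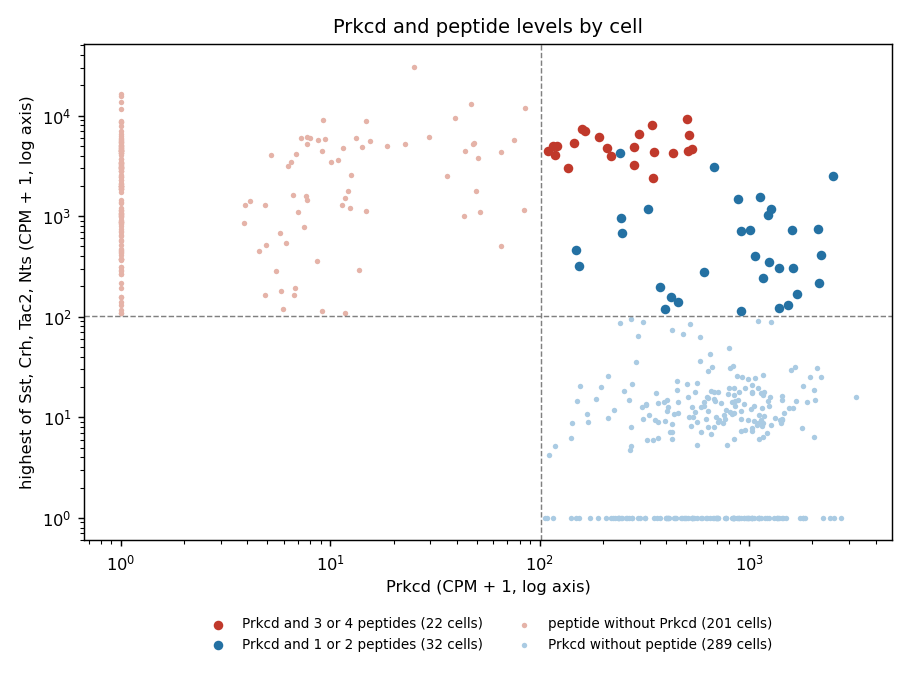
Each point is an inhibitory cell. The x axis gives Prkcd and the y axis the highest of Sst, Crh, Tac2 and Nts, both in CPM plus 1 on log axes, and dashed lines mark 100 CPM. The 22 cells with 3 or 4 peptides (red) lie at 108 to 531 CPM of Prkcd and the 31 cells with 1 peptide, drawn in blue with the 1 cell that had 2, spread up to 2188 CPM, beyond which lies 1 cell of 401 counts at 2494 CPM.

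The threshold cut through sparse values on both sides. Prkcd was between 100 and 200 CPM in 11 double-positive cells, the lowest at 108 CPM, and between 50 and 100 CPM in 6 peptide cells without Prkcd, the highest at 84.3 CPM. The highest peptide was between 100 and 200 CPM in 8 double-positive cells, the lowest at 114 CPM. A peptide reached 50 to 100 CPM in 10 Prkcd cells without peptide, the highest at 93.1 CPM. Prkcd had 0 counts in 134 of the 201 peptide cells without Prkcd, and all 4 peptides had 0 counts in 115 of the 289 Prkcd cells without peptide. Prkcd was at 1000 CPM or more in 17 double-positive cells.

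Peptide levels differed between combinations. In the 13 double-positive cells with Crh alone, Crh ranged over 118 to 741 CPM with a median of 320 CPM, against a median of 1131 CPM in the 10 Crh-only cells without Prkcd. In the 6 with Sst alone the median of Sst was 309 CPM, against 1867 CPM in the 56 Sst-only cells without Prkcd. For Tac2 alone the medians were 354 CPM with Prkcd and 1414 CPM without it. Nts alone went the other way, with a median of 995 CPM in the 6 double-positive cells and 466 CPM in the 25 Nts-only cells without Prkcd. In 3 of these 4 single-peptide pairs, then, the median peptide level was lower in the cells that held Prkcd.

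In cells with all 4 peptides the picture was mixed. Crh had a median of 1250 CPM in the 15 double-positive cells and 1000 CPM in the 23 cells without Prkcd. The median of Tac2 was 3578 CPM in the double-positive cells and 3451 CPM in those without Prkcd, and that of Nts 3688 CPM against 2117 CPM. Sst had a median of 1321 CPM in the double-positive cells and 3221 CPM in the cells without Prkcd.

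Genes outside the rule separated the 2 kinds of double-positive cells. Cartpt, the precursor of the CART peptides, and Pdyn, the prodynorphin gene, were looked at in every cell after the split by peptide number had been seen, so their counts carry no test. Both genes had also been picked in an earlier analysis of these same cells. Of the 22 cells with 3 or 4 peptides, 0 were positive for Cartpt, so that by a floor of 3 cells up to 13.6% is allowed, and 21 were positive for Pdyn. Of the 31 cells with 1 peptide, 26 were positive for Cartpt and 4 for Pdyn. By sample, Pdyn was positive in 6 of 7, 3 of 3, 3 of 3, 2 of 2, 4 of 4, 1 of 1 and 2 of 2 cells with 3 or 4 peptides in samples 1, 2, 3, 5, 6, 7 and 9. In the cells with 1 peptide the samples were less uniform. Cartpt was positive in 3 of 3, 2 of 2, 4 of 6, 1 of 1, 5 of 5, 4 of 4, 2 of 3, 1 of 3 and 4 of 4 of them in samples 1 to 9. Pdyn was positive in 1 such cell in each of samples 2, 3, 5 and 7, and 2 of the 3 cells of sample 8 held neither gene.

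The classes without overlap gave the values beside which these stand. Cells with 3 or 4 peptides but no Prkcd were positive for Cartpt in 0 of 35, which allows up to 8.57%, and for Pdyn in 32 of 35. Prkcd cells without peptide were positive for Cartpt in 177 of 289 and for Pdyn in 5 of 289. Cells with 1 peptide but no Prkcd were positive for Cartpt in 19 of 117 and for Pdyn in 42 of 117. The 13 double-positive cells with Crh alone were all Cartpt-positive, against 4 of the 10 Crh-only cells without Prkcd. Of the 6 double-positive cells with Sst alone, 4 were positive for Cartpt and 3 for Pdyn.

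Raising the threshold for Prkcd and the peptides to 3 counts per 10000 left 8 double-positive cells with 3 or 4 peptides and 16 with 1 peptide. Cartpt was then positive in 0 of the 8, which allows up to 37.5%, and in 16 of the 16, and Pdyn in 7 of the 8 and in 1 of the 16. At 1 count the classes grew to 63 cells with 3 or 4 peptides, of which 13 were Cartpt-positive and 43 Pdyn-positive, and 157 cells with 1 peptide, of which 78 were Cartpt-positive and 13 Pdyn-positive.

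A pair of 16-gene lists, called the Prkcd-side and the Sst-side list, had been picked in an earlier analysis of these same cells, so they are not independent evidence. Cartpt is on the Prkcd-side list and Pdyn on the Sst-side list, so the counts below partly repeat the split by these genes. The 22 cells with 3 or 4 peptides were positive for 0 to 1 Prkcd-side genes (median 0) and for 2 to 6 Sst-side genes (median 5). The 31 cells with 1 peptide were positive for a median of 3 Prkcd-side genes and 1 Sst-side gene. All 22 of the first kind held more Sst-side than Prkcd-side genes. Of the 31 cells with 1 peptide, 26 held more Prkcd-side genes, 3 more Sst-side genes and 2 equal numbers. At least 2 genes of both lists were positive in 0 of the 22 cells, in 5 of the 31 (16.1%), in 12 of 289 Prkcd cells without peptide (4.15%) and in 6 of 117 cells with 1 peptide and no Prkcd (5.13%).

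Many other genes followed the same line, ranked by the difference in positive cells between the 2 kinds and so given with no test. Pcp4, a calmodulin-binding peptide, was positive in 21 of the 22 cells with 3 or 4 peptides and in 3 of the 31 cells with 1 peptide. Col6a1, a collagen VI chain, was positive in 21 of the 22 and in 2 of the 31, and Spink8 in 21 of the 22 and in 8 of the 31. On the other side, Gpr83, a G protein-coupled receptor, was positive in 5 of 22 cells with 3 or 4 peptides and in 25 of 31 cells with 1 peptide. Ngb, the neuroglobin gene, was positive in 5 of the 22 and in 25 of the 31, and Resp18, a protein of secretory cells, in 8 of the 22 and in 28 of the 31.

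Some genes set the double-positive cells with 3 or 4 peptides beside their counterparts without Prkcd at different shares over pooled cells. Pnoc, the precursor of nociceptin, was positive in 19 of 22 double-positive cells (86.4%, interval 65.1% to 97.1%) and in 12 of 35 cells with 3 or 4 peptides and no Prkcd (34.3%, 19.1% to 52.2%). Nmb, the neuromedin B gene, was positive in 11 of 22 double-positive cells and 6 of 35 cells without Prkcd. Arhgap36 was positive in 19 of 22 double-positive cells and 19 of 35 cells without Prkcd. The median gene count was 166456 in the 22 double-positive cells and 114050 in the 35 cells without Prkcd, and the part of this depth gap in those shares was not tested. In the fit by sample of these same cells, none of these 3 genes passed: the log2 fold change was 0.98 ± 0.86 for Pnoc, 2.92 ± 0.76 for Nmb and 0.63 ± 0.60 for Arhgap36 (edgeR adjusted p = 0.896, 0.285 and 0.911).

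**Figure D2:**
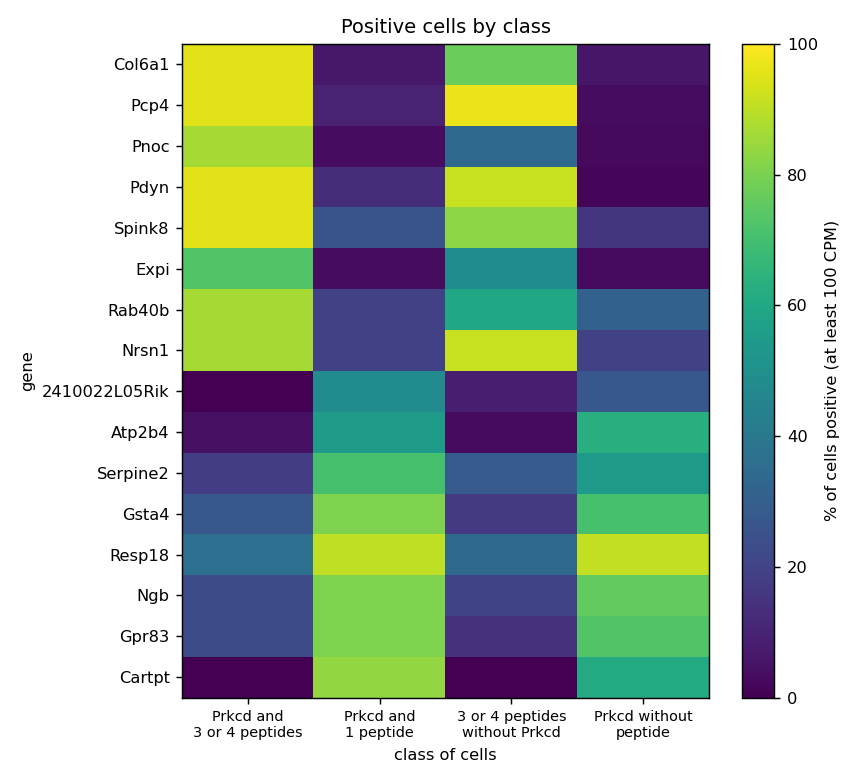
Percentage of cells positive (at least 100 CPM, colour scale 0 to 100%) for 16 genes (rows) in 4 classes (columns). The rows are the 8 genes most in excess in double-positive cells with 3 or 4 peptides and the 8 most in excess in those with 1 peptide. For most rows the first column resembles cells with 3 or 4 peptides without Prkcd, and the second resembles Prkcd cells without peptide. Cells with 1 peptide and no Prkcd are not drawn, so the second column cannot be set beside them here.

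Double-positive cells were found in every sample. They numbered 10, 6, 9, 1, 7, 8, 4, 3 and 6 in samples 1 to 9, or 10.5%, 6.52%, 9.68%, 1.05%, 7.53%, 8.89%, 4.88%, 3.49% and 7.14% of the inhibitory cells. The mean share was 6.63% ± 3.06 (SD, n = 9), with sample 4 lowest. They made up 3.33% to 33.3% of the peptide-positive cells and 3.57% to 25.6% of the Prkcd-positive cells of a sample. The mean shares for animal numbers 1 to 3 were 5.49%, 5.85% and 8.57%, a spread with an exact permutation p of 0.454 (1680 groupings, two-sided). For the 3 date fields the means were 8.91%, 5.82% and 5.17% (exact permutation p = 0.311, adjusted p = 0.454 for both splits). Cells with 3 or 4 peptides were present in 7 samples and cells with 1 peptide in all 9.

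**Figure D3:**
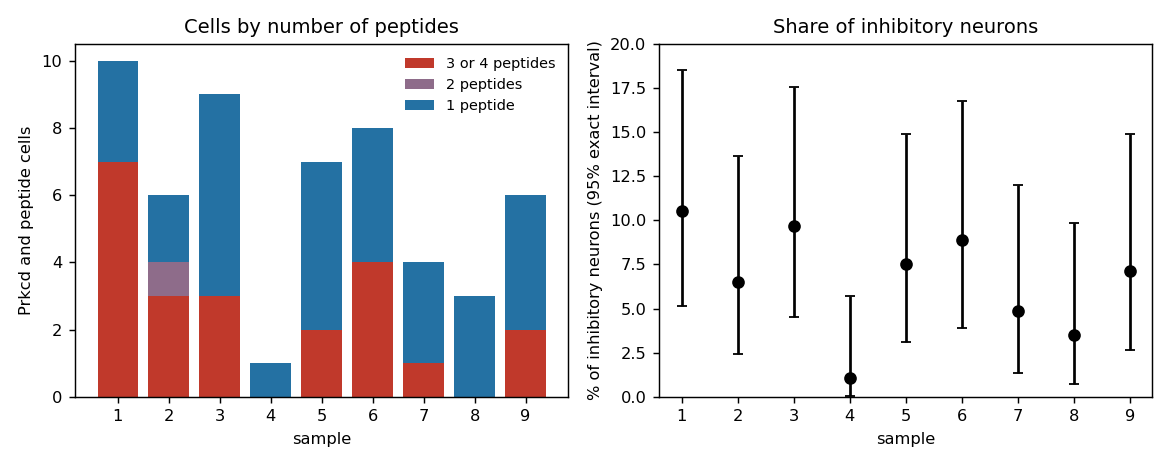
Left, number of double-positive cells in each of the 9 samples, stacked by the number of peptides. Right, their share of the inhibitory cells with its exact 95% binomial interval, which ran between 1.05% in sample 4 and 10.5% in sample 1.

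Depth and RNA content were compared per sample. The per-sample median of log2 gene counts was 0.19 ± 0.33 higher in double-positive cells than in peptide cells without Prkcd (SD of the difference, 6 samples, higher in 4 of 6, exact sign-flip permutation p = 0.25). Against Prkcd cells without peptide it was 0.28 ± 0.28 higher (higher in 5 of 6, exact permutation p = 0.0625, adjusted p = 0.188). These 6 samples allow a smallest p of 0.0312. The log2 ratio of gene counts to ERCC spike-in counts, a measure of RNA per cell, differed by 0.03 ± 0.24 from peptide cells without Prkcd (exact permutation p = 0.781) and by 0.18 ± 0.19 from Prkcd cells without peptide (exact permutation p = 0.0938). None of the 6 differences in counts, detected genes and spike-in ratio passed the adjusted threshold of 0.05.

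High counts were not spread evenly over classes. Within their sample, 9 of the 54 double-positive cells (16.7%) lay in the top 10% of gene counts, against 33 of 201 peptide cells without Prkcd (16.4%) and 18 of 289 Prkcd cells without peptide (6.23%). More than 2 times the sample median of gene counts was reached by 3 of the 54 double-positive cells (5.56%), by 4.98% of peptide cells without Prkcd and by 1.38% of Prkcd cells without peptide. More than 2 times the sample median of the gene to spike-in ratio was reached by 4 of the 54 double-positive cells (7.41%), by 3.98% of peptide cells without Prkcd and by 1.38% of Prkcd cells without peptide. The highest 2 were a Crh and Tac2 cell of sample 2 with 369281 counts and 7784 genes and a Tac2 cell of sample 1 with 361398 counts and 8015 genes. At the other end, a cell of sample 9 entered the class with 401 counts in all. No doublet caller was run, and the part of paired cells in the class was not tested.

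Markers of other cells were measured beside these values. Mbp, a myelin gene, was positive in 22 of 54 double-positive cells (40.7%), 55 of 201 peptide cells without Prkcd (27.4%) and 84 of 289 Prkcd cells without peptide (29.1%). Within the double-positive cells it was positive in 13 of 22 with 3 or 4 peptides and 9 of 31 with 1 peptide. The summed level of 10 oligodendrocyte genes ran over 79.0 to 180 CPM in the double-positive sums, 33.1 to 141 CPM in those of peptide cells without Prkcd and 117 to 257 CPM in those of Prkcd cells without peptide. Mal and Cldn11 were at 0 in the double-positive sums. The 9 astrocyte genes summed to 119 to 368 CPM in double-positive cells, 259 to 570 CPM in peptide cells without Prkcd and 7.07 to 57.1 CPM in Prkcd cells without peptide. Gfap, Gja1, Gjb6 and Fgfr3 were at 0 in the double-positive sums, and Aqp4, Slc1a3 and Gjb6 in those of peptide cells without Prkcd. Slc1a2 and Aldoc, whose averages are given below, made up most of the astrocyte total in these classes. The other astrocyte genes were too scarce to be tested, so that total is not a measure of the whole list. The part of glial RNA in the comparisons that follow was not tested.

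**Figure D4:**
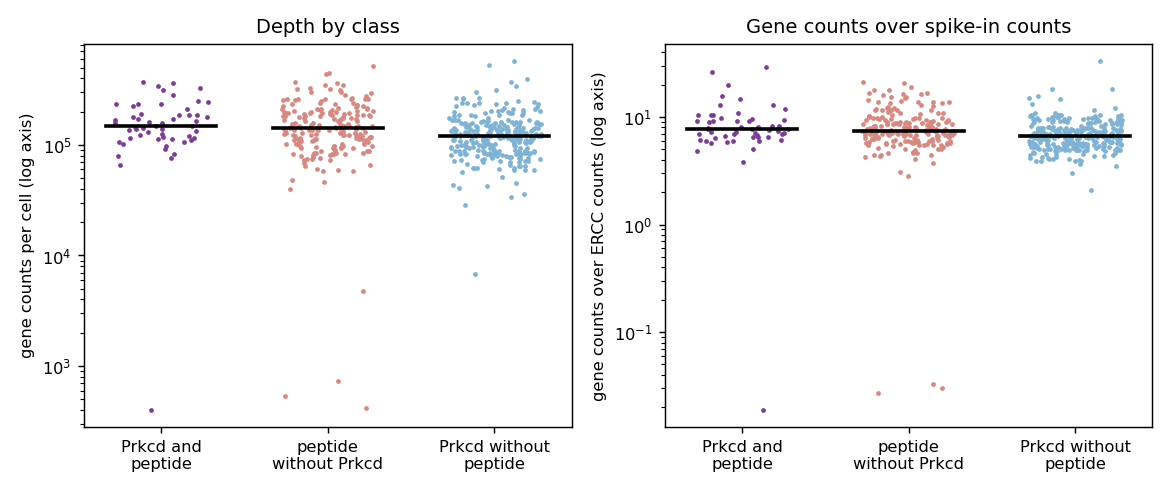
Each point is a cell. Gene counts (left) and gene counts over ERCC spike-in counts (right) are drawn on log axes for the 54 double-positive, 201 peptide and 289 Prkcd cells, with the class median as a line. The classes overlap over most of their range, and the lowest double-positive cell has 401 counts, beside 417 in the lowest peptide cell without Prkcd.

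For the comparisons across genes, each class with at least 5 cells in a sample gave 1 sum of counts, and all 3 classes were fitted together with the sample as a block (edgeR quasi-likelihood test, Benjamini-Hochberg adjustment). Double-positive sums came from 46 cells in 6 samples, 6 to 10 cells each, and held 594628 to 1963853 counts. Peptide cells without Prkcd gave 9 sums of 12 to 38 cells and Prkcd cells without peptide 9 sums of 27 to 42 cells. The double-positive sums rest on fewer cells, and they pool both kinds described above. For orientation, Prkcd cells without peptide against peptide cells without Prkcd gave 503 higher genes (4.32% of 11654 tested) and 587 lower (5.04%), 9.35% in either direction.

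Set against peptide cells without Prkcd, the double-positive cells had more of several genes that Prkcd cells carry, such as Ezr, Cartpt and Sox5. They had less Rbfox3, Camk2n1, Thy1 and Penk. Among these genes only Ezr and Cartpt also passed with equal cell numbers per class (edgeR adjusted p = 0.158 for Sox5). Sox5 and Thy1 did not pass in the fit of only these 2 classes (edgeR adjusted p = 0.0973 and 0.0642). Of 11654 genes, 202 were higher (1.73%) and 297 lower (2.55%) at an adjusted p under 0.05, 4.28% in either direction. Fitting only these 2 classes gave 64 higher and 42 lower genes, of which 64 and 40 were among the 202 and 297. Equal cell numbers per class gave 49 and 14, and leaving out Mbp-positive cells, which left 2 samples with double-positive sums, 61 and 134. The number of lower genes was 184, 161 and 176 without sample 3, 5 or 6.

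Ezr, which encodes the membrane-cytoskeleton linker ezrin, had a lowest, median and highest value of 95.9, 117 and 244 CPM in the 6 double-positive sums, against 0.578, 11.0 and 17.3 CPM in the 9 sums of peptide cells without Prkcd. The groups did not overlap, and the log2 fold change was 3.98 ± 0.33 (SE, edgeR adjusted p = 3.59e-07). Cartpt ran over 437, 671 and 3080 CPM in double-positive sums, against 2.23, 75.3 and 188 CPM in sums of peptide cells without Prkcd. Its log2 fold change was 4.01 ± 0.68 (edgeR adjusted p = 0.00139), again without overlap. Both genes were picked for a large fold with 1 direction in every sample compared, so the lack of overlap is no added support. The share of all genes without overlap was not counted.

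A pair of neuropeptide-related genes stood above both single-marker classes in the fit of all 3 classes. Chga, which encodes the secretory granule protein chromogranin A, had 872, 1158 and 1269 CPM in double-positive sums, against 270, 366 and 547 CPM in peptide cells without Prkcd and 361, 668 and 938 CPM in Prkcd cells without peptide. The log2 fold change was 1.45 ± 0.15 against peptide cells without Prkcd (edgeR adjusted p = 5.41e-06) and 0.69 ± 0.15 against Prkcd cells without peptide (edgeR adjusted p = 0.0176). The second of these calls ended without sample 1 or sample 2 (edgeR adjusted p = 0.0531 and 0.0695) and with equal cell numbers per class (edgeR adjusted p = 0.861). That fold change was -0.057 where only cells with exactly 1 peptide were kept and 0.91 with at least 3 (edgeR adjusted p = 0.917 and 0.0638). Nmb had 64.3, 83.5 and 259 CPM in double-positive sums, against 0.352, 14.2 and 54.9 CPM in peptide cells without Prkcd and 5.07, 19.4 and 31.0 CPM in Prkcd cells without peptide. Its log2 fold change against peptide cells without Prkcd was 3.73 ± 0.66 (edgeR adjusted p = 0.00199), and against Prkcd cells without peptide it was 3.26 ± 0.63 (edgeR adjusted p = 0.00855).

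Other genes higher than in peptide cells without Prkcd included regulators and secreted or membrane proteins. Sox2, a transcription factor, averaged 107 ± 35.8 CPM in double-positive sums and 20.2 ± 21.9 CPM in peptide cells without Prkcd (SD, n = 6 and 9). The transporter gene Slc4a11 averaged 94.3 ± 31.9 CPM in double-positive sums and 11.6 ± 11.0 CPM in peptide cells without Prkcd, and the transcription factor Sox5 67.3 ± 37.8 CPM in double-positive sums and 6.09 ± 8.14 CPM in peptide cells without Prkcd. Igfbp2, which binds insulin-like growth factors, averaged 35.9 ± 22.2 CPM in double-positive sums and 1.30 ± 3.46 CPM in peptide cells without Prkcd, and Pltp, a phospholipid transfer protein, 35.8 ± 26.6 CPM in double-positive sums and 1.72 ± 2.16 CPM in peptide cells without Prkcd. The cannabinoid receptor gene Cnr1 averaged 105 ± 42.7 CPM in double-positive sums and 45.6 ± 20.9 CPM in peptide cells without Prkcd (log2 fold change 1.09 ± 0.24, edgeR adjusted p = 0.012; -0.16 with only cells of at least 3 peptides). Papln had 136 counts in double-positive cells and 0 in peptide cells without Prkcd, so it was at least 178-fold higher, with 3 counts over the class as the floor. That floor is over counts pooled from the fitted sums, 46 double-positive cells of 6 samples and 201 peptide cells of 9. It does not pair the samples or cover the spread between cells or samples. Papln was higher in 5 of 6 samples, and sample 9 had 0 in both classes.

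Lower genes were led by transcripts with almost no counts in the double-positive sums. Maob, which encodes monoamine oxidase B, had 0 counts in double-positive sums and 1024 in those of peptide cells without Prkcd. It was thus at least 87.1-fold lower by the same floor. Cdk18 and Bend7 also had 0 counts in double-positive sums, at least 55.0-fold and 52.5-fold lower. Kcnh1, a potassium channel gene, had 2 counts in double-positive sums and 990 in those of peptide cells without Prkcd. The ratio was 0.00792, with a 95% counting interval of 0.000958 to 0.0287. That interval treats counts as independent molecules, which the sources used here do not establish.

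More abundant genes fell as well. Rbfox3, which encodes the neuronal protein NeuN, averaged 247 ± 48.4 CPM in double-positive sums and 469 ± 65.9 CPM in peptide cells without Prkcd (log2 fold change -0.89 ± 0.14, edgeR adjusted p = 0.00076). Camk2n1, an inhibitor of calmodulin kinase II, averaged 31.0 ± 21.2 CPM in double-positive sums and 213 ± 68.4 CPM in peptide cells without Prkcd, and Thy1 119 ± 46.2 CPM in double-positive sums and 243 ± 50.7 CPM in peptide cells without Prkcd. The NMDA receptor subunit gene Grin2a averaged 2.24 ± 5.14 CPM in double-positive sums and 45.6 ± 19.6 CPM in peptide cells without Prkcd, and the guidance cue gene Sema3a 3.33 ± 5.31 CPM in double-positive sums and 62.4 ± 28.2 CPM in peptide cells without Prkcd. Scn3b, a sodium channel beta subunit, averaged 565 ± 157 CPM in double-positive sums and 757 ± 115 CPM in peptide cells without Prkcd. Msra and Cntnap1 were also lower, and their shared direction in all 6 samples was a condition for naming them. Aldoc, listed here among astrocyte genes, averaged 44.9 ± 63.6 CPM in double-positive sums and 237 ± 126 CPM in peptide cells without Prkcd.

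Counts over the gene lists gave the following, beside a median log2 fold change of -0.19 over all genes tested, of which 4.28% passed in either direction. Of the 16 Prkcd-side genes, 10 were higher and 0 lower (median 4.13), and of the 16 Sst-side genes, 3 were lower and 0 higher (median -1.79). Among 14 other neuropeptide precursors 4 were higher (Cartpt, Chga, Nmb, Scg2) and 2 lower (Npy, Penk), with a median of 0.28. Among 22 glutamate receptor genes 3 were lower and 0 higher (median -0.53), and among 26 potassium channel genes 3 were lower and 0 higher (median -0.82). Axon guidance and adhesion genes gave 4 lower and 0 higher of 48 (median -0.79), and general neuron genes 3 lower and 0 higher of 13 (median -0.41). No member passed among 21 neuropeptide receptors, 19 immediate early genes and 8 inhibitory neuron genes. In lists of this size 0 calls lie near the share of 4.28% over all genes. Chrm1 and Cnr1 were higher and Adra1b and Htr7 lower among 16 monoamine, acetylcholine, adenosine and cannabinoid receptors (median -3.56). Cacna1d and Cacng3 were higher and Cacna1i and Scn3b lower among 28 sodium, calcium, HCN and TRP channel genes (median -0.27). Rorb and Sox5 were higher among 33 transcription factor genes (median -0.35), Gabra4 was lower among 18 GABA and glycine receptor genes (median -0.38), and Chga and Scg2 were higher and Pcsk2 lower among 13 genes of peptide processing and release (median 0.03). Of the glial and vascular lists, 3 oligodendrocyte, 2 astrocyte, 2 endothelial and 1 ependymal gene could be tested, and Aldoc alone passed.

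Set against Prkcd cells without peptide, the double-positive cells had more of several transcripts typical here of peptide cells, foremost Pdyn, Pcp4, Pam and Pnoc, and less Penk. Of 11654 genes 105 were higher (0.901%) and 71 lower (0.609%), 1.51% in either direction. Median-of-ratios scaling moved that split to 121 higher and 39 lower. Fitting only these 2 classes gave 33 higher and 9 lower, of which 33 and 8 were among the 105 and 71, and equal cell numbers gave 38 and 2, the 2 lower genes being Ldb2 and Penk. Leaving out Mbp-positive cells gave 9 and 42. The number of higher genes was 66 without sample 1, and that of lower genes lay between 30 and 53 over the samples left out.

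Pdyn had a lowest, median and highest value of 323, 517 and 899 CPM in the 6 double-positive sums, against 1.89, 3.42 and 19.4 CPM in the 9 sums of Prkcd cells without peptide. The log2 fold change was 6.27 ± 0.43 (edgeR adjusted p = 1.78e-08). Pcp4 had 173, 405 and 466 CPM in double-positive sums, against 0.624, 10.4 and 38.4 CPM in Prkcd cells without peptide (log2 fold change 5.05 ± 0.51, edgeR adjusted p = 7.29e-06). Neither gene overlapped between the classes, but both were picked for a large fold with 1 direction in every sample compared. For both, the peptide cells without Prkcd averaged more, at 1001 ± 315 CPM of Pdyn and 557 ± 137 CPM of Pcp4.

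Pnoc had 111, 147 and 356 CPM in double-positive sums, against 0, 4.10 and 21.8 CPM in Prkcd cells without peptide (log2 fold change 4.98 ± 0.65, edgeR adjusted p = 0.000152). In peptide cells without Prkcd it averaged 107 ± 48.5 CPM. Pam, which encodes the enzyme that amidates neuropeptides, had 49.1, 136 and 235 CPM in double-positive sums, against 6.02, 21.2 and 34.2 CPM in Prkcd cells without peptide (log2 fold change 2.87 ± 0.31, edgeR adjusted p = 1.57e-05). The double-positive sums lay above every sum of Prkcd cells without peptide for both genes, of which Pnoc was picked for its large fold.

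Penk, the proenkephalin gene, was below both classes. It had 197, 377 and 1308 CPM in double-positive sums, against 781, 1220 and 2013 CPM in peptide cells without Prkcd and 2010, 2562 and 3478 CPM in Prkcd cells without peptide. Sample 1, at 1308 CPM, was the only double-positive sum that overlapped the peptide cells without Prkcd. The log2 fold change was -2.61 ± 0.27 against Prkcd cells without peptide (edgeR adjusted p = 1.05e-05, lower in 6 of 6 samples) and -1.56 ± 0.27 against peptide cells without Prkcd (edgeR adjusted p = 0.00139, lower in 5 of 6). The second turned to 0.22 at a threshold of 3 counts per 10000, where 1 sample held enough double-positive cells, and to 0.12 at 1 count, and its call was lost with equal cell numbers (edgeR adjusted p = 0.307). By cells, Penk was positive in 13 of 22 double-positive cells with 3 or 4 peptides and in 24 of 31 with 1 peptide.

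**Figure D5:**
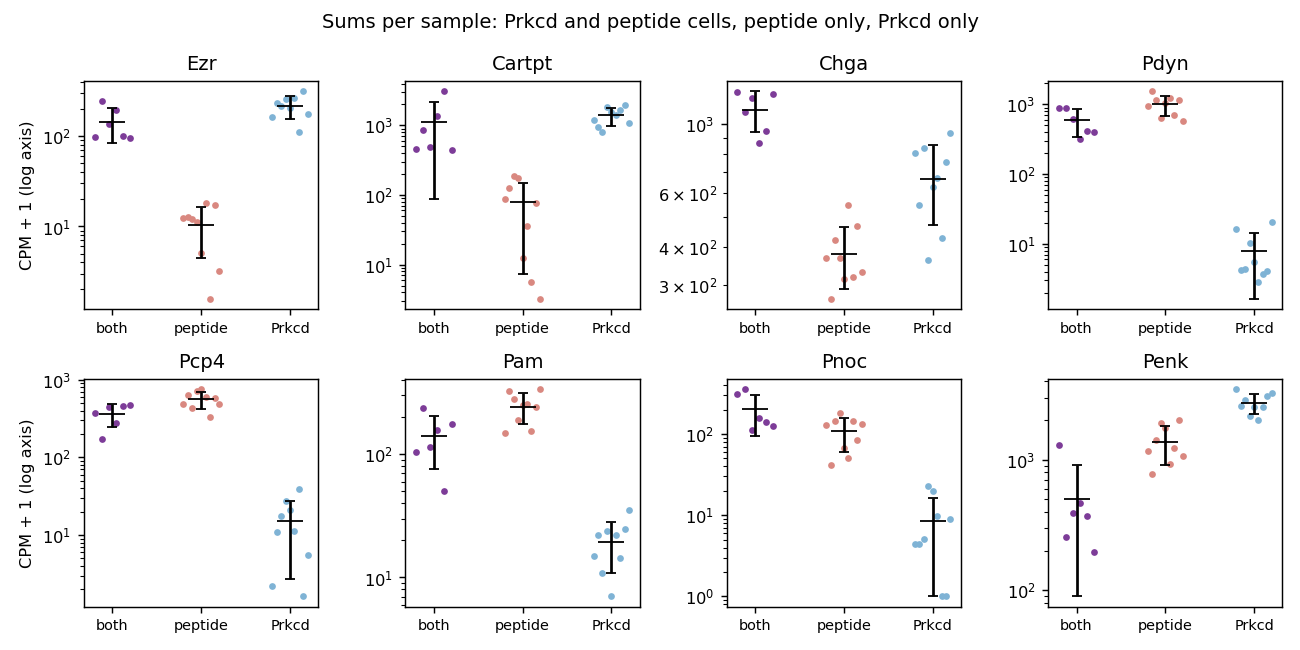
CPM plus 1 on log axes for 8 genes, with 1 point per sample sum: double-positive cells (both, 6 samples), peptide cells without Prkcd (peptide, 9) and Prkcd cells without peptide (Prkcd, 9). Black marks are the mean and SD, with the lower bar stopped at 1. Ezr and Cartpt lie near the Prkcd class, Pdyn and Pcp4 near the peptide class, and Penk lies low in the double-positive sums.

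Receptor, channel and regulatory genes were also higher than in Prkcd cells without peptide. Vipr2, a receptor for vasoactive intestinal peptide, averaged 67.8 ± 39.0 CPM in double-positive sums, 12.9 ± 9.22 CPM in peptide cells without Prkcd and 0.917 ± 1.84 CPM in Prkcd cells without peptide. Tox, a transcription factor, averaged 55.7 ± 33.6 CPM in double-positive sums and 0.684 ± 1.16 CPM in Prkcd cells without peptide, and Arhgap36 331 ± 297 CPM in double-positive sums and 15.4 ± 18.0 CPM in Prkcd cells without peptide. The serotonin receptor gene Htr2c averaged 47.3 ± 42.4 CPM in double-positive sums and 1.98 ± 2.64 CPM in Prkcd cells without peptide, and was higher in 5 of 6 samples. The sodium channel gene Scn9a averaged 87.6 ± 37.9 CPM in double-positive sums and 10.9 ± 6.51 CPM in Prkcd cells without peptide. The TRP channel gene Trpc5 averaged 70.2 ± 32.0 and 9.55 ± 4.10 CPM in these classes. With exactly 1 peptide the log2 fold changes of Scn9a and Trpc5 were -1.36 and -1.02. Htr2c and Trpc5 did not pass in the fit of only these 2 classes (edgeR adjusted p = 0.158 and 0.0562). With equal cell numbers Vipr2, Htr2c, Scn9a and Trpc5 did not pass (edgeR adjusted p = 0.0542, 0.138, 0.147 and 0.267).

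Structural genes moved too. Stmn2, a regulator of microtubules, averaged 648 ± 165 CPM in double-positive sums and 126 ± 58.4 CPM in Prkcd cells without peptide, and the neurofilament gene Nefl 232 ± 89.9 CPM in double-positive sums and 40.9 ± 38.0 CPM in Prkcd cells without peptide. The glutamate transporter gene Slc1a2, counted here in the astrocyte list, averaged 155 ± 56.7 CPM in double-positive sums and 18.9 ± 9.28 CPM in Prkcd cells without peptide, with 186 ± 75.7 CPM in peptide cells without Prkcd. Sema6d, Kctd15 and Tmem90a were higher in 6 of 6 samples at averages of 17.0, 12.8 and 13.7 CPM in double-positive sums and 0.471, 0.0755 and 0.372 CPM in Prkcd cells without peptide.

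Among genes lower than in Prkcd cells without peptide, Aqp11, an aquaporin gene, had 1 count in double-positive cells and 1048 in Prkcd cells without peptide, a ratio of 0.00443 with a 95% counting interval of 0.000112 to 0.0247. Stxbp6 had 0 counts in double-positive cells and was at least 63.2-fold lower with 3 counts over the class as the floor. These counts, the interval and the floor pool the fitted sums, 46 double-positive cells of 6 samples and 289 Prkcd cells of 9. They do not pair the samples or cover the spread between cells or samples. Ldb2, a cofactor of LIM-domain transcription factors, averaged 12.1 ± 16.8 CPM in double-positive sums and 98.8 ± 20.8 CPM in Prkcd cells without peptide (log2 fold change -3.62 ± 0.58, edgeR adjusted p = 0.00156). Cstad averaged 1.49 ± 3.23 CPM in double-positive sums and 36.1 ± 18.1 CPM in Prkcd cells without peptide, and Galnt13 1.74 ± 3.24 CPM in double-positive sums and 19.1 ± 9.28 CPM in Prkcd cells without peptide. Stxbp6, Cstad and Galnt13 did not pass in the fit of only these 2 classes (edgeR adjusted p = 0.123, 0.0562 and 0.179). With equal cell numbers Aqp11, Cstad and Galnt13 did not pass (edgeR adjusted p = 0.0685, 0.521 and 0.995), and Stxbp6 was not tested.

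Over all genes tested, the median log2 fold change here was -0.22 and 1.51% passed in either direction. Over the lists, 11 of 16 Sst-side genes were higher and 0 lower (median 4.23). Of the 16 Prkcd-side genes 0 passed in either direction (median -1.14). Among 14 other neuropeptide precursors 4 were higher (Chga, Nmb, Pdyn, Pnoc) and 1 lower (Penk), with a median of -0.38. Tacr3 and Vipr2 were higher among 21 neuropeptide receptors, and Scn9a and Trpc5 among 28 sodium, calcium, HCN and TRP channel genes. Junb was lower among 19 immediate early genes (median -1.04). No member passed among 18 GABA and glycine receptor genes (median 0.28) and 8 inhibitory neuron genes (median -0.15), where 0 calls lie near the share of 1.51%. Chga and Pam were higher and Pcsk1n lower among 13 genes of peptide processing and release (median -0.15). Cntn4, Pcdh10 and Sema6d were higher among 48 axon guidance and adhesion genes (median -0.21), Tox and Tshz2 among 33 transcription factor genes (median 0.03), Gria3 among 22 glutamate receptor genes (median -0.49) and Htr2c among 16 monoamine and related receptors (median -0.61). Kcnd3 was lower among 26 potassium channel genes (median -0.24). Nefl and Stmn2 were higher and Rbfox3 lower among 13 general neuron genes (median 0.31), and of the 8 glial and vascular genes tested Slc1a2 alone passed.

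The 2 kinds were then fitted apart, with at least 2 cells per class and sample, a split chosen after the data were seen. With cells of at least 3 peptides only, double-positive cells against peptide cells without Prkcd gave 0 higher genes and 1 lower (Malat1, log2 fold change -0.35 ± 0.06, edgeR adjusted p = 0.0151) of 8774 tested. At an unadjusted p under 0.05 these counts were 321 and 248, and DESeq2 was not run on that split. Against Prkcd cells without peptide the same cells gave 71 higher and 201 lower genes (median log2 fold change over all genes tested -0.57). Of 10258 genes tested with cells of exactly 1 peptide, 178 were higher and 449 lower against peptide cells without Prkcd (median -0.39). Against Prkcd cells without peptide 1 was higher and 4 were lower (median -0.52). At an unadjusted p under 0.05 in edgeR these last counts were 55 and 1389, so most such genes were lower.

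The 5 genes that passed with exactly 1 peptide against Prkcd cells without peptide were named after their values were seen. They were Ptprf (log2 fold change 1.64 ± 0.29), Penk (-1.97 ± 0.29), Aqp11, Ccnd1 and Zfp704, the last 4 lower (edgeR adjusted p between 0.00736 and 0.0461). The few cells per sum limit what such fits can find, and a p that misses the threshold does not show that classes were alike. For several named genes the fitted values differed between the 2 kinds. The log2 fold change of Pnoc against Prkcd cells without peptide was 6.27 with 3 or 4 peptides and -2.26 with exactly 1 (edgeR adjusted p = 5.33e-05 and 0.555). That of Pdyn was 7.08 and 3.74 (edgeR adjusted p = 4.1e-11 and 0.0828), and that of Pam 3.93 and 0.17 (edgeR adjusted p = 6.93e-06 and 0.922). Against peptide cells without Prkcd, the log2 fold change of Cartpt was 1.16 with 3 or 4 peptides and 4.44 with exactly 1 (edgeR adjusted p = 0.78 and 0.000181), and that of Ezr 1.71 and 6.04 (edgeR adjusted p = 0.879 and 0.000269). Chga against peptide cells without Prkcd had nearly the same fold change in both kinds, 1.08 ± 0.27 with 3 or 4 peptides and 1.03 ± 0.22 with exactly 1 (edgeR adjusted p = 0.273 and 0.0059). Whether the fold changes of the 2 kinds differ from each other was not tested.

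In the comparison with peptide cells without Prkcd, 26 of the 41 named genes that passed did so with every sample left out in turn. In that with Prkcd cells without peptide, 22 of the 41 did so. The other named genes did not pass in every such fit. For all genes called, the corresponding share is not given here. In fits of only the 2 classes, 10 of the 26 passed: Cartpt, Ezr, Nmb, Sox2, Slc4a11, Kcnh1, Camk2n1, Chga, Rbfox3 and Penk, while Bend7, Maob, Papln and C1ql2 were not tested there. Of the 22, 13 passed: Vipr2, Tox, Pdyn, Pcp4, Pnoc, Arhgap36, Aqp11, Ldb2, Stmn2, Penk, Pam, Scn9a and Slc1a2, while Sema6d, Kctd15 and Tmem90a were not tested there. With equal cell numbers per class, 7 of the 26 passed: Igfbp2, Pltp, Cartpt, Ezr, Nmb, Sox2 and Chga. All 7 were higher genes, and no named lower gene tested there passed against peptide cells without Prkcd. Calls lost included Penk, Scn3b, Grin2a, Camk2n1 and Rbfox3 (edgeR adjusted p = 0.307, 0.494, 0.33, 0.133 and 0.100). Of the 22, 11 passed with equal cell numbers: Tox, Pdyn, Pcp4, Pnoc, Arhgap36, Ldb2, Stmn2, Penk, Pam, Nefl and Slc1a2. Fixed genes that passed in neither comparison included the CGRP receptor gene Calcrl and the transcription factor genes Isl1 and Nr2f2. Isl1 averaged 47.3 ± 48.1 CPM in double-positive sums, 51.1 ± 25.1 CPM in peptide cells without Prkcd and 9.29 ± 11.4 CPM in Prkcd cells without peptide.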

How the data were processed

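The data are RNA-seq counts of 829 single cells in 9 samples of 1 group. The authors deposited whole-number counts per gene and cell for 22601 genes and 91 ERCC spike-ins, and a table that gives each cell's sample. Per the submitters' processing notes, the build was NCBIM37 and Seurat was used. The sources used here do not give the aligner, the annotation, the strand setting or whether molecular identifiers were counted: overlapping and antisense genes cannot be told apart and intervals cover counting error only.

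From these counts, a cell was positive for a gene at 1 count per 10000 gene counts (100 CPM). Counts were summed per sample and class with at least 5 cells and tested with edgeR 4.0.16 in R 4.3.3 (quasi-likelihood test, TMM scaling, filterByExpr, sample as a block, Benjamini-Hochberg over all genes tested), a procedure tested on simulated data. Means ± SD are of CPM over sample sums. Depth was compared with exact sign-flip permutations and shares with exact permutations (Python 3.11.15, scipy 1.17.1). Total gene counts per sample were 8522750 to 22730327. Genes were named as up to 10 per side with the largest fold, an adjusted p under 0.05, a mean of at least 10 CPM and 1 direction in every sample, up to 2 passing members per list, and fixed genes. The members and the 22 gene lists (385 of 400 genes found) were chosen with earlier results of these data known. The text gives values mainly for named genes that passed with each sample left out, a choice made after seeing the data.

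Alternatives were other thresholds, all cells, cells thinned to 74000 counts, other minimum and equal cell numbers, removal of shallow, deep or Mbp-positive cells, each sample left out, median-of-ratios scaling, no filter, no sample block, DESeq2 1.42.0 and fits of 2 classes. Fits by peptide number were added after seeing the data. No doublet caller was run. Classes follow the threshold rule and no clustering was done. The result for 1 gene with a sample apart is not reported here.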

Additional observations from a re-analysis of the deposited data

Results flagged for a closer look

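Of 49 sets of per-sample values examined, 3 held a sample apart from the others, of which 2 are described, and chance alone marks about 1 set in 20. The log2 difference of Rorb, a nuclear receptor gene, was 0.0528 in sample 3 between double-positive cells and peptide cells without Prkcd, while the fitted log2 fold change was 4.43 (edgeR adjusted p = 0.0139). That call ended without sample 1 (edgeR adjusted p = 0.056) and without sample 5 (edgeR adjusted p = 0.0549). Against Prkcd cells without peptide, Tox3 had a log2 difference of 1.12 in sample 5, with a fitted log2 fold change of 5.43 (edgeR adjusted p = 0.0474). The Tox3 call ended without any 1 of samples 1, 2, 3, 6, 7, 8 and 9, at edgeR adjusted p-values of 0.112, 0.132, 0.110, 0.128, 0.0743, 0.0510 and 0.101.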

How the results depend on the processing

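Counts of higher and lower genes are given first against peptide cells without Prkcd (202 and 297) and then against Prkcd cells without peptide (105 and 71). DESeq2 gave 480 and 868, then 296 and 435, and for Prkcd cells without peptide against peptide cells without Prkcd 788 and 1000 (503 and 587 in edgeR). Equal cell numbers gave 49 and 14, then 38 and 2, with 117 and 164 for the third comparison. Fits of 2 classes gave 64 and 42, then 33 and 9. At least 10 cells per class, which left 1 sample with double-positive cells, gave 12 and 9, then 11 and 8. A threshold of 3 counts per 10000, also with 1 such sample, gave 4 (Akap9, Atp6ap2, Ncdn, Spg21, named after their values were seen) and 32, then 23 and 43. A threshold of 1 count gave 36 lower genes, then 40 higher and 3 lower (Akap9, Cpne7, mt-Rnr2, likewise). Without Mbp-positive cells, 2 samples were left and gave 61 and 134, then 9 and 42. Only cells with at least 3 peptides gave 0 and 1, then 201 lower; only cells with exactly 1 gave 449 lower, then 1 and 4. Median-of-ratios scaling gave 39 and no filter 46 lower genes against Prkcd cells without peptide.

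The sample was the block throughout, since the classes are cells of the same samples. With no replicate block, double-positive cells gave 286 higher and 385 lower genes against peptide cells without Prkcd and 161 and 106 against Prkcd cells without peptide, and the third comparison gave 474 and 584.

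Leaving out each sample gave 145 to 207 higher and 161 to 302 lower genes against peptide cells without Prkcd, 66 to 103 and 30 to 53 against Prkcd cells without peptide, and 398 to 465 and 447 to 539 in the third comparison. The log2 ratio of gene to spike-in counts against peptide cells without Prkcd lay between -0.0311 and 0.103 over the samples left out, below 0 without sample 2 or 5. Without Mbp-positive cells it was -0.17, log2 gene counts differed by -0.34 and -0.12 and detected genes by -436 and -20.0, against peptide and Prkcd cells. At 1 count the differences from Prkcd cells were 0.17 in log2 gene counts and 298 genes (exact permutation adjusted p = 0.0469). The mean share was 3.08% at 3 counts per 10000 and 43.5% at 1 count.

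Of 82 calls of named genes, these changed sign against peptide cells without Prkcd (log2 fold changes). With at least 3 peptides they were Atp10a (-2.80), C1ql2 (-0.20), Cnr1 (-0.16) and Slc38a5 (-2.74). At 3 counts per 10000 they were Atp10a (-3.42), C1ql2 (-4.49), Slc38a5 (-0.25) and Penk (0.22). At 1 count they were Kcnc1 (0.11) and Penk (0.12), and with at least 10 cells C1ql2 (-2.87). Against Prkcd cells without peptide, with exactly 1 peptide they were Chga (-0.057), Gria3 (-0.059), Pnoc (-2.26), Scn9a (-1.36) and Trpc5 (-1.02). At 1 count they were Chga (-0.012), Galnt13 (1.01), Kcnd3 (0.57), Stxbp6 (0.84), Tmem90b (0.068) and Upk1b (0.18). At 3 counts per 10000 they were Camk2n1 (-1.46), Kctd15 (-1.21) and Tshz2 (-0.16), with at least 10 cells Camk2n1 (-2.06), and without Mbp-positive cells Gria3 (-0.16) and Tacr3 (-0.89). The causes were not tested. With 46 double-positive cells in 6 sums, depth limits what could be called for scarce genes.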
